A study of Caenorhabditis elegans with 9 samples.

Results

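The genes described are the subunits of ion channels that a neurotransmitter opens in Caenorhabditis elegans, together with their closest relatives. They were picked by gene name, with earlier results of these data known. A gene was taken when the array's annotation gave a probe set a single symbol that starts with acr-, lgc-, glr-, nmr-, avr- or glc- and a number, or that is unc-29, unc-38, unc-49, unc-63, lev-1, lev-8, eat-2, exp-1 or mod-1. This gave 90 genes of the 17118 that had such a probe set, and each gene was read by the brightest of its probe sets. The 90 genes carried 102 probe sets in all, and 9 genes had more than 1. A further 14 genes of the same names were not read by a probe set with a single symbol and are not analysed here as members. For avr-15 and lgc-31, the annotation gave the probe set the gene's own symbol for more than 1 record.

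RNA was measured in starved larvae of the first stage (L1) with Affymetrix C. elegans arrays, 3 arrays a strain. The mutants were ogt-1(ok430), which lacks the O-GlcNAc transferase, and oga-1(ok1207), which lacks the O-GlcNAcase, and the strain they were set against was wild type. The transferase attaches a single sugar, O-GlcNAc, to nuclear and cytoplasmic proteins, and the O-GlcNAcase removes it. All 9 cultures had the same history: embryos were freed by bleach, hatched in buffer without food and harvested at 48 h, so fed larvae were not part of the comparison. The arrays of a strain are labelled as biological replicates, and no outcrossing of the mutants is stated in the labels.

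Fast signalling in the worm runs largely through these channels. Acetylcholine opens cation channels on body wall and pharyngeal muscle, built of nicotinic subunits, and glutamate opens both excitatory channels on interneurons and inhibitory chloride channels, which are also the targets of ivermectin. GABA relaxes body wall muscle through a chloride channel, and serotonin, tyramine, dopamine and acetylcholine open further anion channels found in invertebrates. The lgc family holds relatives of these receptors, many of which have no known ligand.

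All values are log2 summaries of a probe set as deposited, and a difference of 1 is a doubling. A level of 6.26, the highest strain mean among the 5 yeast control probe sets on the array, was taken as the limit below which a gene is not shown to be above background, and for such a gene a difference is one of signal only. By this limit 63 of the 90 genes were above background in all 3 strains, 25 were in none, and lgc-19 and lgc-34 crossed it between strains. The 25 are 27.8% of the members, where 6338 of all 17118 genes were in none. Differences were tested with limma across all probe sets, and a call means an adjusted p under 0.05 (Benjamini-Hochberg, within a comparison). The standard error of a member's difference had a median of 0.12, so the 95% interval reached a median of 0.27 to either side. Array medians lay between 6.80 and 6.87. Replicate 2 of oga-1 stood apart on the second principal component, and replicate 3 of oga-1 correlated on average at 0.9894 with the other oga-1 arrays and at 0.9906 with those of the other strains. As a check of the labels, the dimmer of the 2 ogt-1 probe sets fell by 0.61 in ogt-1 larvae (adjusted p = 0.0124) and the brighter differed by -0.22 (adjusted p = 0.581). In oga-1 larvae both ogt-1 probe sets also lay below every wild type array without a call, by -0.40 (adjusted p = 0.109) and -0.42 (adjusted p = 0.240). Between oga-1 and ogt-1 larvae they differed by 0.21 and -0.20 without a call, so they do not tell the mutants apart. The 3 probe sets of oga-1 differed by 0.03, -0.05 and -0.02 in oga-1 larvae, with no call. Where they lie relative to the deletion was not examined, so the oga-1 label is not checked by these values.

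The test was passed in a mutant by 4 receptor genes. In ogt-1 larvae eat-2 and acr-7, both nicotinic subunits, fell, and the glutamate receptor subunit glr-6 rose. In oga-1 larvae lgc-18, a channel subunit of the lgc family, had a higher signal, at values under the background limit. In ogt-1 against wild type this is 3 called members of 90, where 4.32% of all genes were called, 1.94% as higher and 2.38% as lower. In oga-1 against wild type it is 1 of 90, where 2.11% of all genes were called, 0.800% as higher and 1.31% as lower. Both shares are close to the share among all genes. At an unadjusted p under 0.05 there were 11 members (12.2%) in ogt-1, with 17.6% of all genes, and 20 members (22.2%) in oga-1, with 14.9% of all genes. The samples are whole larvae, in which fewer cells of a type and less RNA per cell cannot be told apart.

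Most other members lay slightly below wild type without a call. In ogt-1 larvae 63 of 90 members (70.0%) were below wild type with a median difference of -0.09, where 50.1% of all genes were below it with a median of -0.001. In oga-1 larvae 72 members (80.0%) were below it with a median of -0.13, where 47.9% of all genes were below with a median of 0.008. After the arrays were set to the same median, 55 and 67 members were below wild type. The median member difference was then -0.06 in ogt-1 and -0.11 in oga-1, where the median of all probe sets was 0.04 and 0.02. Both mutants are compared with the same wild type arrays, so these are not separate observations. Wild type replicate 3 had the highest member values of the 9 arrays: the median member deviated from its own 9-array mean by -0.001, -0.018 and -0.016 in ogt-1 larvae, by -0.089, -0.072 and 0.006 in oga-1 larvae, and by 0.035, -0.012 and 0.146 in wild type. Without that wild type array the median differences were -0.05 in ogt-1 and -0.09 in oga-1, with 53 and 63 members below 0.

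**Figure D1:**
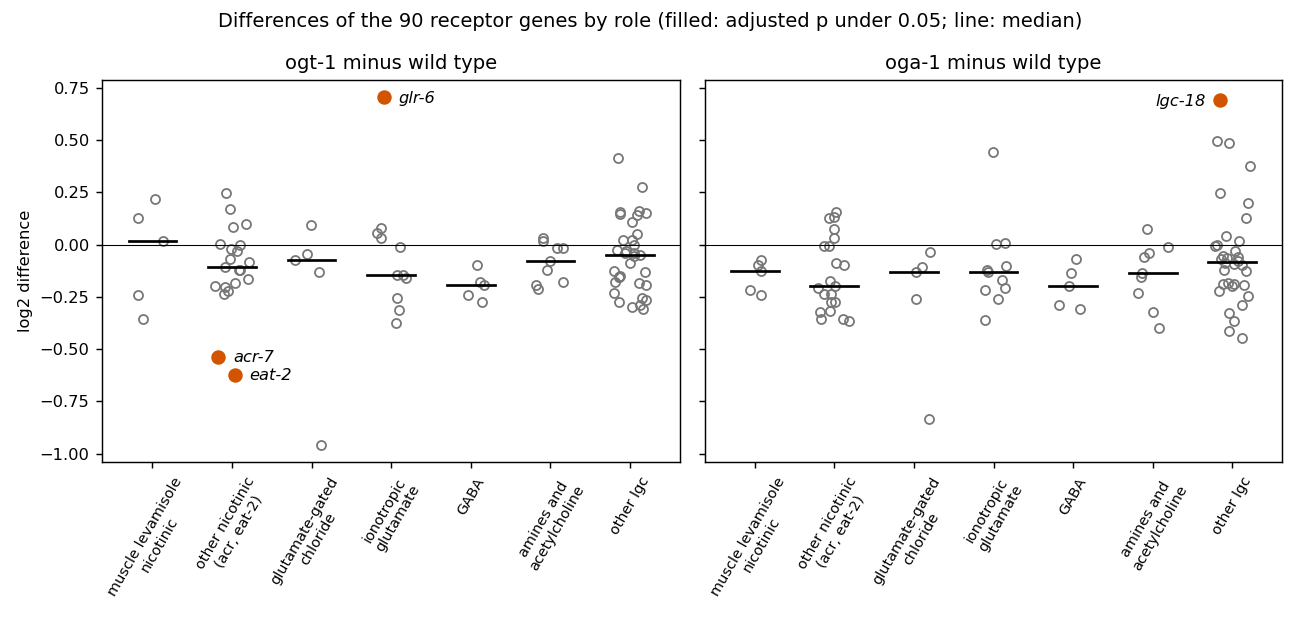
Log2 difference from wild type of each of the 90 genes (points) in ogt-1 larvae (left) and oga-1 larvae (right), by the role of the gene, with the median of each role as a bar. Filled points passed limma's test at an adjusted p under 0.05: acr-7, eat-2 and glr-6 in ogt-1, and lgc-18 in oga-1.

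The subunits of the levamisole receptor, the cation channel through which acetylcholine contracts body wall muscle, did not pass the test in either mutant. The essential non-alpha subunit unc-29 read 7.64, 7.87 and 7.85 in ogt-1 larvae, 7.62, 7.48 and 7.92 in oga-1 larvae, and 7.74, 7.70 and 7.87 in wild type. The 3 strains overlapped, and the differences were 0.02 (95% interval -0.26 to 0.29) in ogt-1 and -0.10 (-0.37 to 0.18) in oga-1. For the alpha subunit unc-38 the values were 9.09, 9.18 and 9.16 in ogt-1 larvae, 8.89, 8.53 and 9.13 in oga-1 larvae, and 9.05, 8.80 and 8.94 in wild type. All ogt-1 arrays lay above all wild type arrays, by 0.22 (-0.09 to 0.53, adjusted p = 0.525). The alpha subunit unc-63 differed by -0.24 in both mutants, with intervals of -0.61 to 0.13. It averaged 6.28 in ogt-1 and 6.29 in oga-1 larvae, close to the background limit of 6.26, and 6.53 in wild type. The non-alpha subunit lev-1 differed by 0.13 in ogt-1 and by -0.13 in oga-1. The alpha subunit lev-8 read 6.45, 6.44 and 6.35 in ogt-1 larvae, 6.41, 6.39 and 6.86 in oga-1 larvae, and 6.58, 6.56 and 7.17 in wild type. Its difference in ogt-1 was -0.35 (-0.73 to 0.02, adjusted p = 0.340), and the high wild type value came from replicate 3. All 10 intervals of the 5 subunits stayed within 2-fold.

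The largest called fall was that of eat-2, a subunit of the nicotinic receptor of pharyngeal muscle that sets the rate of pumping. It read 7.06, 7.35 and 7.46 in ogt-1 larvae, 7.63, 7.62 and 7.53 in oga-1 larvae, and 8.07, 7.79 and 7.88 in wild type. The ogt-1 arrays were the lowest, the oga-1 arrays lay between, and no strain overlapped another. In ogt-1 eat-2 fell by 0.62 ± 0.12 (SE) on the log2 scale, a 1.54-fold lower value (adjusted p = 0.0170), and the difference in oga-1 was -0.32 (adjusted p = 0.249). Leaving out ogt-1 replicate 2 ended the call (adjusted p = 0.0631), as did leaving out wild type replicate 1 (adjusted p = 0.0569).

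Of the 6 markers of pharyngeal muscle, myo-1, myo-2, tnt-4, tni-4, ceh-22 and pha-4, all 6 also lay below wild type in both mutants, with medians of -0.26 and -0.29. None was called by limma, and 3 had an unadjusted p under 0.05 in each mutant. Their mean level was 10.52 to 10.77 in ogt-1 larvae, 10.47 to 10.71 in oga-1 larvae, and 10.84 to 10.99 in wild type. The part of pharyngeal muscle content in the eat-2 difference was not tested.

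The other called nicotinic gene was acr-7, a subunit of the group that holds acr-16. Its values were 6.59, 6.62 and 6.58 in ogt-1 larvae, 6.69, 7.03 and 6.61 in oga-1 larvae, and 7.28, 6.94 and 7.18 in wild type. The ogt-1 arrays were tightly grouped below all wild type arrays, and the oga-1 arrays reached into the wild type range. In ogt-1 acr-7 fell by 0.54 ± 0.13 (SE), 1.45-fold (adjusted p = 0.0408), and in oga-1 the difference was -0.36 (adjusted p = 0.215). This call was weak: it was lost on leaving out any ogt-1 array, oga-1 replicate 1, wild type replicate 1 or wild type replicate 3, with adjusted p up to 0.143.

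**Figure D2:**
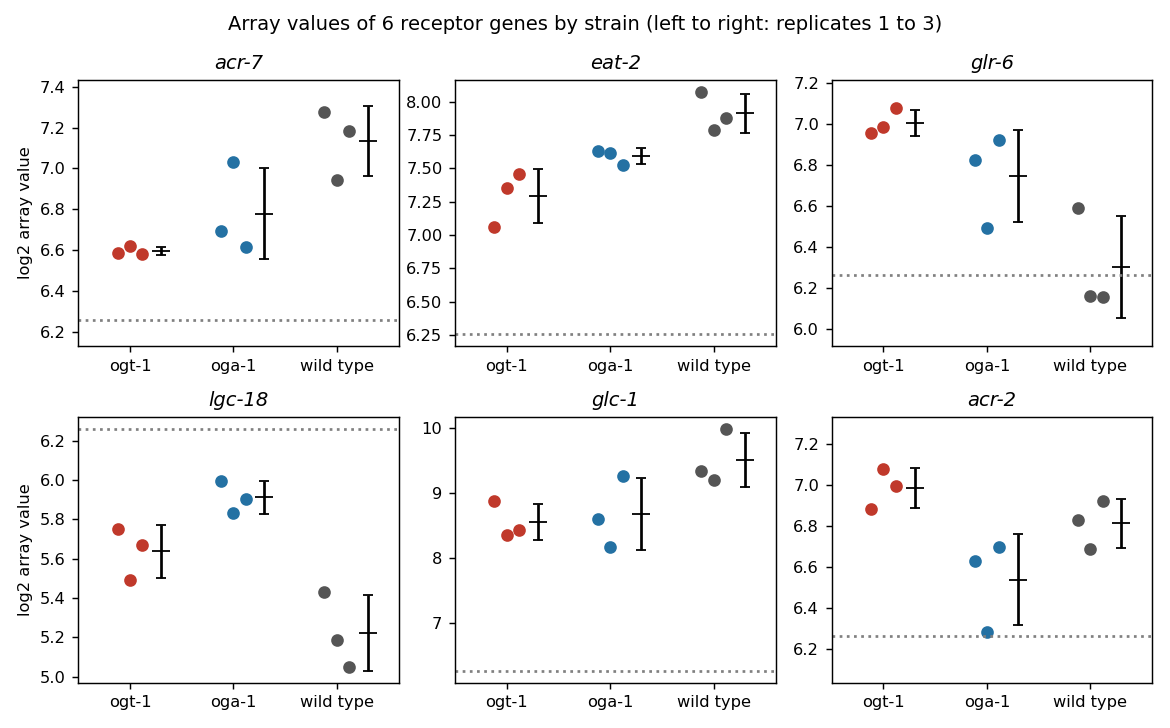
Log2 array values of acr-7, eat-2, glr-6, lgc-18, glc-1 and acr-2 in ogt-1, oga-1 and wild type larvae, with replicates 1 to 3 as points and the mean ± SD (n = 3) beside them; the dotted line is the background limit of 6.26. All lgc-18 values lie below the line, and the wild type arrays of glc-1 spread from 9.20 to 9.99.

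The remaining nicotinic subunits were not called in either mutant. In the group of acr genes and eat-2, 15 of 21 lay below wild type in ogt-1 with a median of -0.11, and 16 of 21 in oga-1 with a median of -0.20. The subunit acr-16 forms the levamisole-insensitive receptor of body wall muscle. It read 7.19, 7.05 and 6.96 in ogt-1 larvae, 6.69, 6.53 and 7.02 in oga-1 larvae, and 6.94, 7.07 and 7.29 in wild type. The difference in oga-1 was -0.35 (-0.66 to -0.05, adjusted p = 0.270), and in ogt-1 it was -0.03 (-0.34 to 0.28). Its neighbour on chromosome V, acr-15, was not above background in any strain. The subunits acr-2 and acr-12 build a receptor that excites cholinergic motor neurons. For acr-2 the arrays gave 6.88, 7.08 and 6.99 in ogt-1 larvae, 6.63, 6.28 and 6.70 in oga-1 larvae, and 6.83, 6.69 and 6.92 in wild type. Its difference was 0.17 in ogt-1 (adjusted p = 0.587) and -0.28 in oga-1 (adjusted p = 0.357). For acr-12 the difference was -0.12 in ogt-1 and -0.21 in oga-1, with every array of either mutant below every wild type array. Chosen after its values were seen, acr-23, which encodes a receptor opened by betaine, averaged 7.35 ± 0.21 in ogt-1 larvae, 7.23 ± 0.16 in oga-1 larvae and 7.11 ± 0.09 in wild type (SD, n = 3 each). Its ogt-1 arrays all lay above the wild type arrays, by 0.25 (-0.03 to 0.53, adjusted p = 0.383).

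Of the 11 excitatory glutamate receptor genes 1 was called, glr-6, a subunit of the non-NMDA class. It had the highest difference of the class in both mutants, where 4 of the 11 genes lay above wild type in ogt-1 larvae and 3 in oga-1 larvae. Its values were 6.96, 6.98 and 7.08 in ogt-1 larvae, 6.83, 6.49 and 6.92 in oga-1 larvae, and 6.59, 6.16 and 6.16 in wild type. The ogt-1 arrays lay above all others, while wild type replicates 2 and 3 were under the background limit. In ogt-1 glr-6 rose by 0.70 ± 0.14 (SE), 1.63-fold (adjusted p = 0.0208), and in oga-1 the difference was 0.44 (adjusted p = 0.166). This call ended on leaving out ogt-1 replicate 2, ogt-1 replicate 3, wild type replicate 2 or wild type replicate 3, with adjusted p up to 0.0967.

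The other 10 genes of this class were not called. The AMPA-type subunit glr-1, which carries touch signals to the command interneurons, read 7.76, 7.70 and 7.57 in ogt-1 larvae, 7.47, 7.32 and 7.77 in oga-1 larvae, and 7.66, 7.38 and 7.82 in wild type. Its strains overlapped, with differences of 0.05 (-0.26 to 0.36) and -0.10 (-0.41 to 0.21), and its probe set is of a kind that can also bind related transcripts. The NMDA-type subunit nmr-1 was below the background limit in all 3 strains and differed by -0.14 in ogt-1 and -0.12 in oga-1. The kainate-type subunit glr-5 read 8.45, 8.60 and 8.48 in ogt-1 larvae, 8.48, 8.41 and 8.67 in oga-1 larvae, and 8.97, 8.59 and 9.09 in wild type. Those differences, -0.37 (adjusted p = 0.166) and -0.36 (adjusted p = 0.226), were the lowest of the class, and glr-5 was picked out after its values were seen. Genes glr-2, glr-3, glr-7 and glr-10 were not above background in any strain.

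The glutamate-gated chloride channels held the member with the lowest difference of all, glc-1, an alpha subunit and target of ivermectin. It read 8.88, 8.35 and 8.43 in ogt-1 larvae, 8.60, 8.17 and 9.26 in oga-1 larvae, and 9.34, 9.20 and 9.99 in wild type. Replicate 3 was the highest array of both oga-1 and wild type. The ogt-1 arrays lay below all wild type arrays, by -0.96 ± 0.27 (SE, adjusted p = 0.0766), and oga-1 differed by -0.83 ± 0.27 (SE, adjusted p = 0.158), so neither was called. For ogt-1 glc-1 was called when oga-1 replicate 2, oga-1 replicate 3 or all oga-1 arrays were left out of the fit. For oga-1 it was called when oga-1 replicate 3 was left out. With replicate number as a block in limma on all 9 arrays, glc-1 was called in ogt-1 (adjusted p = 0.0194) and oga-1 (adjusted p = 0.0459). The block on 2 strains alone also called it in both (adjusted p = 0.0260 and 0.00234). Same-numbered ogt-1 and wild type arrays did not deviate together. The differences over the 18 alternatives tried ranged from -1.12 to -0.72 in ogt-1 and from -1.13 to -0.58 in oga-1. The widely expressed subunit avr-14 differed by 0.09 (-0.14 to 0.33) in ogt-1 and by -0.13 (-0.36 to 0.10) in oga-1. Subunits glc-2, glc-3 and glc-4 differed by -0.13 to -0.04 in ogt-1 and by -0.26 to -0.04 in oga-1. The avr-15 channel inhibits pharyngeal muscle, and its probe set was annotated to more than 1 record and so was not counted. That probe set read 9.31, 9.10 and 9.25 in ogt-1 larvae, 9.23, 9.09 and 9.27 in oga-1 larvae, and 9.56, 9.57 and 9.86 in wild type. Both mutants lay below every wild type array, by -0.44 (adjusted p = 0.0588) and -0.47 (adjusted p = 0.0665), just outside the threshold.

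Same-numbered oga-1 and wild type arrays deviated together, and with replicate number as a block more genes of oga-1 larvae passed the test. On these 2 strains alone 3 of 90 members were called, with 6.35% of all genes called in that fit. They were glc-1 (-0.83, adjusted p = 0.00234), lgc-18 (higher signal under the background limit, adjusted p = 0.00554) and lgc-26, a channel subunit of unassigned ligand (-0.44, adjusted p = 0.0326). With the block on all 9 arrays the members called were also glc-1, lgc-18 and lgc-26, with 3.63% of all genes called. The array values of lgc-26 were 7.40, 7.61 and 7.81 in oga-1 larvae and 7.81, 7.99 and 8.36 in wild type, so that each oga-1 array lay below its same-numbered wild type array.

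The 5 GABA receptor genes were below wild type in both mutants without a call, with medians of -0.19 in ogt-1 and -0.20 in oga-1. The subunit unc-49, through which GABA relaxes body wall muscle, read 10.58, 10.59 and 10.22 in ogt-1 larvae, 10.44, 9.78 and 10.82 in oga-1 larvae, and 10.77, 10.32 and 10.88 in wild type. Its arrays overlapped, with intervals of -0.70 to 0.31 in ogt-1 and -0.82 to 0.20 in oga-1. Like that of glr-1, the unc-49 probe set read here is of a kind that can also bind related transcripts. The cation channel exp-1, by which GABA contracts the enteric muscles, was below the background limit and differed by -0.10 in ogt-1 and -0.07 in oga-1. Of the others lgc-35, an excitatory GABA channel, was singled out after its values were seen because its mutant arrays did not overlap with wild type. It read 6.56, 6.80 and 6.72 in ogt-1 larvae, 6.57, 6.68 and 6.77 in oga-1 larvae, and 6.86, 6.91 and 7.13 in wild type. The differences were -0.27 (adjusted p = 0.244) and -0.29 (adjusted p = 0.262).

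Channels gated by amines or, as anion channels, by acetylcholine were not called either. The serotonin-gated chloride channel mod-1 read 9.33, 9.22 and 9.12 in ogt-1 larvae, 9.05, 9.26 and 9.11 in oga-1 larvae, and 9.22, 9.18 and 9.21 in wild type. Its differences of 0.02 (-0.20 to 0.24) and -0.06 (-0.28 to 0.16) had intervals well within 2-fold. The tyramine-gated channel lgc-55 differed by -0.02 in ogt-1 and -0.01 in oga-1. The lowest difference of this group was that of lgc-49 in oga-1 larvae, -0.40 (adjusted p = 0.186).

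**Figure D3:**
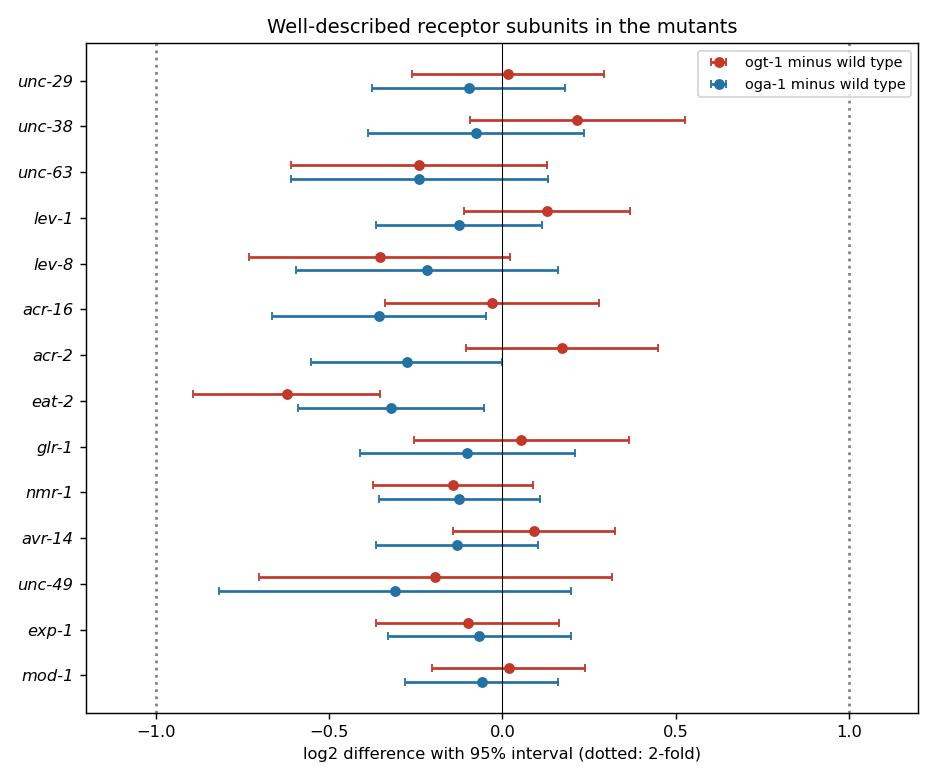
Log2 difference from wild type with its 95% interval for 14 well-described subunits, in ogt-1 larvae (red, upper point) and oga-1 larvae (blue, lower point); dotted lines mark 2-fold. The intervals of eat-2 lie below 0 in both mutants, from -0.89 to -0.35 and from -0.59 to -0.05, and no interval passes a 2-fold line.

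The 34 other lgc genes held the remaining called gene, lgc-18. It read 5.75, 5.49 and 5.67 in ogt-1 larvae, 5.996, 5.83 and 5.90 in oga-1 larvae, and 5.43, 5.19 and 5.05 in wild type. The 3 strains did not overlap and oga-1 was the highest, but all 9 values were under the background limit, so the size of the difference is not given. The signal of lgc-18 in oga-1 passed the test (adjusted p = 0.0158), and that in ogt-1 did not (adjusted p = 0.0875). The call was lost without oga-1 replicate 1, wild type replicate 2 or wild type replicate 3, with adjusted p up to 0.0829.

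Several other lgc genes had high values in part of the oga-1 arrays. The gene lgc-21 read 6.02, 6.45 and 6.54 in ogt-1 larvae, 6.99, 7.14 and 6.37 in oga-1 larvae, and 6.21, 6.46 and 6.35 in wild type. The gene lgc-34 gave 5.90, 6.50 and 5.94 in ogt-1 larvae, 7.16, 7.04 and 6.06 in oga-1 larvae, and 6.71, 6.18 and 5.90 in wild type. In both, replicates 1 and 2 of oga-1 exceeded every other array and replicate 3 of oga-1 did not. The differences from wild type were 0.50 (adjusted p = 0.256) for lgc-21 and 0.49 (adjusted p = 0.521) for lgc-34. Without oga-1 replicate 3 lgc-21 differed by 0.73 and was called (adjusted p = 0.0340). The gene lgc-15 was higher on every array of both mutants than in wild type without a call (adjusted p = 0.186 and 0.0979), at values under the background limit. After quantile normalisation lgc-15 was called in oga-1. The lgc-12 arrays lay on the other side, below wild type by -0.30 (adjusted p = 0.222) and -0.41 (adjusted p = 0.117).

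Members with separated arrays lay mostly on the lower side. In ogt-1 against wild type 23 of 90 members (25.6%) had arrays that did not overlap, where 23.4% of all genes did. In oga-1 against wild type it was 21 members (23.3%), where 17.3% of all genes did. The share that was lower without overlap was 17.8% of the members (16) in ogt-1, where it was 11.5% of all genes, and 17.8% of the members (16) in oga-1, where it was 8.75%. The share that was higher was 7.78% of the members (7) in ogt-1 and 5.56% (5) in oga-1, where it was 11.9% and 8.54% of all genes. For 88 of 90 members in either mutant the 95% interval lay within 2-fold, and for 74 in ogt-1 and 64 in oga-1 it lay within 1.5-fold. These counts include the 25 members above background in no strain, whose intervals are of signal only and do not bound a change in expression. The intervals that reached past 2-fold were those of glc-1 and glr-6 in ogt-1 and of glc-1 and lgc-34 in oga-1.

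Between the mutants no member passed the test. In oga-1 against ogt-1 0 of 90 members were called by limma, with 0.532% of all genes called, and 9 members had an unadjusted p under 0.05, as did 5.36% of all genes. Arrays of the 2 mutants did not overlap for 11 members, and for 9.95% of all genes. The lowest difference was that of acr-2, -0.45 (-0.72 to -0.17, adjusted p = 0.342), with every oga-1 array below every ogt-1 array. The differences of lgc-10 and lgc-54 were -0.41 (adjusted p = 1.00) and -0.34 (adjusted p = 0.536). The highest were lgc-34 at 0.64 (adjusted p = 0.932), lgc-21 at 0.50 (adjusted p = 0.763) and lgc-27 at 0.32 (adjusted p = 1.00), in all of which oga-1 replicates 1 and 2 were the highest arrays. Of the genes called against wild type, eat-2 differed by 0.30 (0.03 to 0.57, adjusted p = 0.828) between oga-1 and ogt-1, acr-7 by 0.18 (-0.10 to 0.46), glr-6 by -0.26 (-0.58 to 0.05) and lgc-18 was not called (adjusted p = 0.915). A call in only 1 mutant is thus not shown to be a difference between the mutants.

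The genes around the receptors were read from lists of transmitter supply, receptor assembly and clustering, and channels of other names. Of 61 listed genes 52 were measured. In ogt-1 larvae 1 of 52 fell and 0 rose by limma, where 4.32% of all genes were called, and 13 of 52 had an unadjusted p under 0.05, where 17.6% of all genes did. In oga-1 larvae 0 were called, where 2.11% of all genes were, and 11 of 52 had such a p, where 14.9% of all genes did. Between the mutants 0 were called and 1 had such a p, where 5.36% of all genes did. The gene that fell was snf-3, the transporter that takes up betaine, with 9.35, 9.34 and 9.08 in ogt-1 larvae, 9.47, 9.76 and 9.52 in oga-1 larvae, and 10.21, 9.95 and 10.10 in wild type. No strain overlapped another, and wild type was the highest. It fell by 0.83 ± 0.12 (SE, adjusted p = 0.00314) in ogt-1 and was called there in all 18 alternatives tried, and in oga-1 it differed by -0.50 (adjusted p = 0.0613). With replicate number as a block on oga-1 and wild type alone 3 of the 52 were called, snf-3 (adjusted p = 0.0411), nra-2 (-0.52, adjusted p = 0.0215), which acts on the subunit composition of nicotinic receptors, and sol-1 (-0.47, adjusted p = 0.0260), an auxiliary protein of glr-1. With the block on all 9 arrays 0 of the 52 were called in oga-1.

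Of the 22 transmitter supply genes, 18 were lower than wild type in ogt-1 larvae and 19 in oga-1 larvae, with medians of -0.13 and -0.14. Apart from snf-3 none was called. With snf-3 counted, 6 (27.3%) and 7 (31.8%) had an unadjusted p under 0.05, where 17.6% and 14.9% of all genes did. Arrays lay wholly below those of wild type for 8 (36.4%) and 7 (31.8%), where they did for 11.5% and 8.75% of all genes. Chosen after their values were seen, the glutamate transporter glt-1 differed by -0.39 (adjusted p = 0.0794) and -0.37 (adjusted p = 0.124), and tph-1, the rate-limiting enzyme of serotonin synthesis, by -0.28 (adjusted p = 0.171) and -0.35 (adjusted p = 0.112). The enzyme that makes acetylcholine, cha-1, differed by -0.10 and -0.08, and its vesicle transporter unc-17 by -0.02 and -0.11. Of the 21 measured assembly and clustering genes 10 were lower than wild type in ogt-1 larvae and 12 in oga-1 larvae, with medians of 0.02 and -0.001. None was called by limma, and 7 and 3 had an unadjusted p under 0.05. Of the 9 measured channels of other names, such as deg-3 and acc-1, none was called, and 0 and 1 had an unadjusted p under 0.05.

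Marker lists of cell types differed in direction. Among 18 neuron markers 9 were below wild type in ogt-1 larvae and 13 in oga-1 larvae, with medians of -0.01 and -0.06. Of these markers 0 were called in either mutant, and 2 and 1 had an unadjusted p under 0.05. Their mean level was 10.06 to 10.11 in ogt-1 larvae, 9.87 to 10.16 in oga-1 larvae, and 10.09 to 10.17 in wild type. Among 13 markers of body wall muscle 9 were above wild type in ogt-1 larvae and 11 in oga-1 larvae, with medians of 0.17 and 0.16. The myosin unc-54 rose in both mutants, by 0.76 (adjusted p = 0.00939) and 0.81 (adjusted p = 0.0139), and myo-3 rose in oga-1 by 0.90 (adjusted p = 0.0490). Of the 4 below wild type in ogt-1, dim-1 was the lowest, at -0.35 (adjusted p = 0.281). Their mean level was 10.44 to 10.66 in ogt-1 larvae, 10.55 to 10.77 in oga-1 larvae, and 10.23 to 10.65 in wild type. The 6 germline markers had a median of -0.36 in ogt-1, and 4 of them lay below wild type, each with an unadjusted p under 0.05. One of these, the P granule helicase glh-1, fell by 0.48 in ogt-1 (adjusted p = 0.0434). In oga-1 larvae 3 of the 6 were below, with a median of 0.01, and none was called. Their mean level was 7.03 to 7.17 in ogt-1 larvae, 7.32 to 7.39 in oga-1 larvae, and 7.30 to 7.44 in wild type. Among 6 markers of hypodermis 4 were below wild type in ogt-1 larvae and 5 in oga-1 larvae, with medians of -0.06 and -0.19, no call, and 0 and 2 at an unadjusted p under 0.05. Their mean level was 7.74 to 7.76 in ogt-1 larvae, 7.53 to 7.69 in oga-1 larvae, and 7.77 to 7.83 in wild type. The 8 intestine markers and 5 yolk genes, which mark adults, held no call, with medians between -0.04 and 0.05. The part of muscle, neuron, germline or hypodermis content in the receptor differences was not tested.

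**Figure D4:**
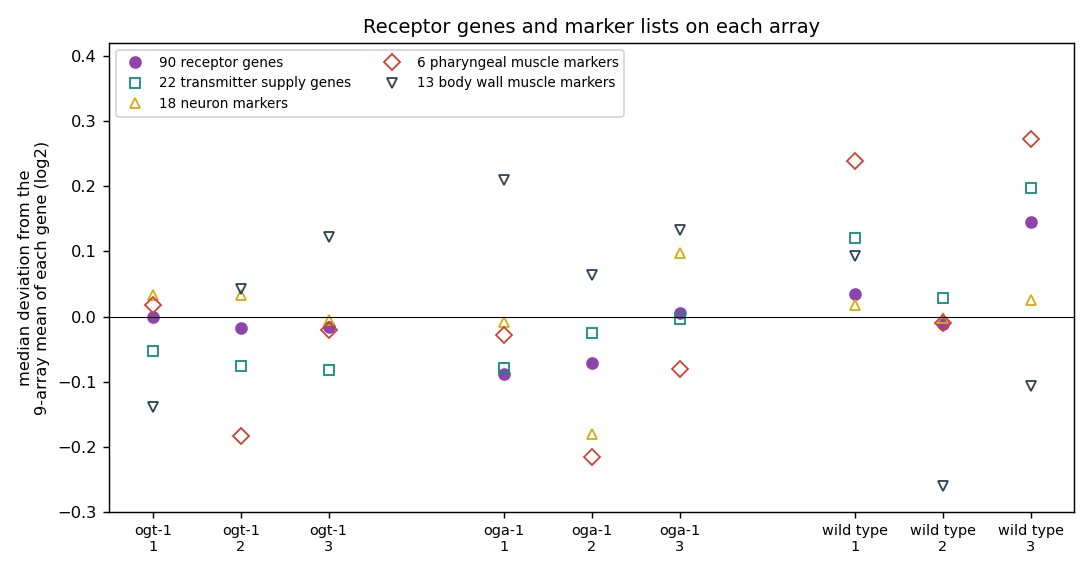
Median deviation, on each of the 9 arrays, of the 90 receptor genes and of 4 other lists from their own 9-array means, on the log2 scale. The receptor genes are highest on wild type replicate 3 (0.146), where the pharyngeal muscle markers and the transmitter supply genes are also at their highest.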

How the data were processed

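The authors deposited 1 log2 value for each of 22625 probe sets on 9 arrays (3 per strain), normalised across arrays. Per the labels' protocols, biotin-labelled cRNA came from 4 ug of Trizol-extracted total RNA. MAS5, RMA and Partek are named without version or role in the submitters' processing notes, so the step that made the values is not known here. Precision rests on the number of arrays, as hybridisation signal has no depth in reads.

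After 77 control probe sets were left out, 22548 were fitted with limma 3.58.1 (R 4.3.3) by lmFit and eBayes, using all 9 arrays with 1 mean for each strain (6 residual and 5.65 prior degrees of freedom, Benjamini-Hochberg over all probe sets per comparison). Symbols came from the platform annotation; all 90 members are listed in the WBcel235 gene table. Named genes are every called member, the 3 highest and 3 lowest differences of each comparison, 15 well-described subunits, and up to 4 called genes per pathway list. Other genes are named for their role or were chosen after their values were seen. The members and lists were chosen with earlier results of these data known.

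Pairing by replicate number was checked by the correlation of deviations from the strain mean. Same-numbered oga-1 and wild type arrays correlated at 0.481, 0.432 and 0.357. The labels do not say that a number marks a shared day, so pairing was used only in the fits named as blocked. All other oga-1 values, intervals and calls are from the fit without a block. The same check gave -0.0960, -0.0155 and -0.00231 for ogt-1 with wild type and 0.0721, 0.0940 and 0.113 for oga-1 with ogt-1.

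Alternatives tried were quantile normalisation, arrays set to the same median, leaving out the dimmest 25% or 50% of probe sets, replicate number as a block, 2 strains alone, a variance trend with robust fitting, a gene's probe sets averaged, an adjusted p under 0.01, and leaving out each array in turn. The block on 2 strains alone was added after seeing the data, as was the background limit. The fit was tested on simulated data. Probe-level data and sequences were not used here.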

Additional observations from a re-analysis of the deposited data

Results flagged for a closer look

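The channel subunit lgc-54 was the only member whose 2 mutants lay wholly on opposite sides of wild type. The share of all genes with this pattern was not counted, so it is not shown to be unusual. It read 6.27, 6.02 and 6.09 in ogt-1 larvae, 5.83, 5.61 and 5.91 in oga-1 larvae, and 5.96, 5.94 and 5.99 in wild type. All ogt-1 arrays were above and all oga-1 arrays below the wild type arrays. The difference of oga-1 from ogt-1, -0.342 on the log2 scale (95% interval -0.58 to -0.10), did not pass limma's test (adjusted p = 0.536), and the differences from wild type were -0.18 in oga-1 (adjusted p = 0.536) and 0.16 in ogt-1 (adjusted p = 0.562). All 3 strain means were under the background limit of 6.26, so these differences are of signal only. Over the 17 alternatives that gave a value the difference between the mutants ranged from -0.41 to -0.26, and none called it.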

How the results depend on the processing

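Over 18 alternatives, 54 results of named genes were followed, 5 of which were called. For ogt-1 against wild type 3 members were called (1 higher, 2 lower). With the replicate block on all arrays 5 were called (2 higher), the additions being glc-1 and lgc-18, although same-numbered ogt-1 and wild type arrays did not deviate together. At an adjusted p under 0.01 0 were called, and without the dimmest 50% of probe sets 0 were higher. Leaving out 1 array gave 0 to 4 called, 0 to 2 higher and 0 to 3 lower. For oga-1 against wild type 1 member was called, higher. With the replicate block 3 were called and 2 of them were lower, on all arrays and on 2 strains alone. Quantile normalisation gave 2, lgc-15 and lgc-18, both higher. Without the dimmest 25% or 50% of probe sets, where lgc-18 is no longer tested, 0 were called, as at an adjusted p under 0.01. Leaving out 1 array gave 0 to 3 called, 0 to 2 higher and 0 to 1 lower. The median member difference in oga-1 was -0.19 without the dimmest 50%, with 47 members tested.

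Of the other pathway genes, 2 were called in ogt-1 with arrays set to the same median, the replicate block on all arrays or on 2 strains alone, 2 strains alone, or a gene's probe sets averaged, and 1 to 2 on leaving out 1 array. In oga-1 it was 1 with the mean of probe sets, 3 with the block on 2 strains alone, and 0 to 1 on leaving out 1 array. Between the mutants 0 members were called in all 18 alternatives.

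The sign turned for 9 results that were near 0 and not called. In ogt-1, acr-16 was 0.00649 with arrays set to the same median and mod-1 was -0.0249 after quantile normalisation. Leaving out 1 array gave in ogt-1 -0.11 to 0.0670 for acr-16, -0.19 to 0.00471 for exp-1, -0.0639 to 0.15 for glr-1, -0.0363 to 0.0710 for mod-1 and -0.0253 to 0.0894 for unc-29. In oga-1 it gave -0.16 to 0.0378 for exp-1, -0.22 to 0.000265 for glr-1, -0.22 to 0.00152 for unc-29 and -0.22 to 0.0855 for unc-38. The cause of these shifts was not tested. Signals under 6.26, which 25 members had in all strains, are where the arrays limit what can be read.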

Other observations

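Probe sets annotated to more than 1 record, left out of the member counts, gave the following values. The probe set shared by glr-9 and W02A2.9 read 8.25, 8.32 and 8.34 in ogt-1 larvae, 8.57, 8.67 and 8.42 in oga-1 larvae, and 8.60, 8.70 and 8.86 in wild type. Every ogt-1 array lay below every wild type array, by -0.42 ± 0.11 (SE, adjusted p = 0.0545), and the difference in oga-1 was -0.17 (adjusted p = 0.574). The lgc-31 probe set differed by -0.31 and -0.36 (adjusted p = 0.521 and 0.488).

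A second probe set could be read for 9 members. For unc-49 the brightest of 4 probe sets differed by -0.19 in ogt-1 and -0.31 in oga-1, and the next brightest by -0.38 (adjusted p = 0.354) and -0.39. Its other probe sets differed by -0.07 and -0.12 in ogt-1, with no call, and by 0.09 and -0.05 in oga-1, so 1 of them had the opposite sign there. For glr-4 the brightest probe set differed by 0.03 in ogt-1 and the others by -0.19 and -0.03. Of the 9 members, 5 had the same sign on all their probe sets in both mutants and 4 did not, the others of these being lgc-38 and lgc-45. For avr-14 the second probe set differed by 0.01 in ogt-1 and -0.07 in oga-1, and for glr-1 by 0.16 and -0.09, the signs of their brightest probe sets.

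Of the 90 members 24 lie on chromosome X and 19 on chromosome V, by the WBcel235 gene table. Only 5 pairs are direct neighbours there. The neighbours acr-2 and acr-3 differed in sign: in oga-1 against ogt-1 acr-2 was at -0.45 and acr-3 at 0.18, neither called, and acr-3 was under the background limit.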
